A study of Mus musculus with 7 samples.

Results

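The 32 genes described here carry out glycolysis, the entry of pyruvate into mitochondria, the response to low oxygen and the pentose phosphate pathway. They were taken by symbol from a list of 32 names and not by their values, and all 32 were among the 15815 genes of the expression table. Of these, 18 encode glycolytic enzymes (Hk1, Hk2, Gpi1, Pfkl, Pfkm, Pfkp, Pfkfb3, Aldoa, Aldoc, Tpi1, Gapdh, Pgk1, Pgam1, Eno1, Eno3, Pkm, Ldha and Ldhb). A further 4 act where pyruvate enters the mitochondrion (Pdha1, Pdhb, Pdk1 and Pdk3), 6 belong to the hypoxia response (Hif1a, Vhl, Egln1, Egln3, Bnip3 and Mif) and 4 to the pentose phosphate pathway (G6pdx, Pgd, Tkt and Taldo1).

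The series asked how regulatory T (Treg) cells, a CD4 lineage specified by the transcription factor Foxp3 that holds immune reactions in check, differ when they lack Hpgd, the enzyme that inactivates prostaglandins. The Hpgd KO group (3 libraries, KO 1 to KO 3) held YFP+ Treg cells deficient for Hpgd, and the WT group (4 libraries, WT 1 to WT 4) held YFP+ WT Treg cells. In both groups the marked cells had been transferred into Rag-/- mice, which form no T or B cells, together with WT naive T cells and further WT Treg cells. After 8 weeks the marked cells were recovered by sorting from mesenteric lymph nodes (mLN). The labels name the same line for all 7 libraries, Hpgd fl with Foxp3-YFP-Cre on strain C57BL/6JRcc, in which Cre driven by Foxp3 deletes Hpgd in Treg cells, so the genotype of each group comes from the sample titles. The sources used here give no age of the mice, and the hosts keep myeloid, stromal and red blood cells of their own. No label states that the 7 libraries stem from different hosts, and the p-values below therefore cover the variation among these libraries, which may be technical to some degree.

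Levels are normalized counts: the reads of a gene divided by a factor for the depth of its library. Total reads were 9501939, 8919815 and 4135733 in KO 1 to KO 3 and 6519725, 8801234, 6129064 and 10622507 in WT 1 to WT 4, and counting error of low genes is therefore greatest in KO 3. Hpgd itself had 0.759, 2.42 and 5.52 normalized counts in KO 1 to KO 3 and 18.7, 9.96, 10.2 and 13.4 in WT 1 to WT 4, which rests on 7 reads in all Hpgd KO libraries and 56 in all WT libraries. The sources used here do not name the deleted exons. Of 7 markers of Treg and T cells all were present, with summed levels of 31932 to 34399 in the Hpgd KO libraries and 29865 to 35244 in the WT libraries. WT 2 stood apart from the other libraries over all genes: a chi-square of its reads against each of them gave 54.8 to 99.0 per degree of freedom, against 12.8 to 30.3 among the other 6 libraries. Its reads also held 7.66% from ribosomal protein genes, against 4.40% to 4.54% in the Hpgd KO libraries and 4.51% to 5.56% in the other WT libraries. Of the Treg markers, Foxp3 had 107 to 142 normalized counts in the Hpgd KO libraries, 56.1 in WT 2 and 103 to 161 in the other WT libraries. Ikzf2, a transcription factor of Treg cells, had 9318 to 13872 in the Hpgd KO libraries, 4832 in WT 2 and 9189.6 to 13666 in the other WT libraries. Ctla4, an inhibitory receptor, had 4868 to 6059 in the Hpgd KO libraries, 3595 in WT 2 and 4502 to 6637 in the other WT libraries. WT 2 was thus the lowest library for these 3 markers, and it was the highest for Cd4, Cd3e and Tnfrsf18. Most fold changes and correlations below are therefore also given without WT 2.

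Glycolysis splits glucose into pyruvate and yields ATP and NADH in the cytosol. Lactate dehydrogenase can turn pyruvate into lactate and so restore NAD+, while the pyruvate dehydrogenase complex, restrained by its kinases, commits pyruvate to the mitochondrial tricarboxylic acid cycle. The pentose phosphate pathway branches off at glucose-6-phosphate and supplies NADPH and ribose. When oxygen is low, prolyl hydroxylases no longer mark HIF-1 alpha for destruction by the von Hippel-Lindau protein, and HIF-1 then switches on most glycolytic genes. Effector T cells depend strongly on glycolysis, and Treg cells are described as relying more on oxidative metabolism.

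Since HIF-1 binds DNA at the core letters ACGTG or GCGTG, the promoters of 5 members are shown, to let a reader see where these letters lie. Gapdh, Eno1 and Ldha are abundant glycolytic genes that varied together over the libraries, Pfkp is a glycolytic gene that varied little, and Bnip3 is a HIF-1 target whose level correlated with that of Gapdh at r = 0.07 over the 7 libraries and 0.49 without WT 2. Each sequence is the 250 bases before the outermost RefSeq start of the gene (GRCm38.p6), written 5′ to 3′ on the strand of the gene. Capitals mark ACGTG or GCGTG on either strand, so that CACGT and CACGC are the same letters read on the other strand. The windows are chr6:125165774-125166023 (minus strand) for Gapdh, chr4:150236458-150236707 (plus strand) for Eno1, chr7:46845554-46845803 (plus strand) for Ldha, chr13:6648772-6649021 (minus strand) for Pfkp and chr7:138909507-138909756 (minus strand) for Bnip3.
Gapdh: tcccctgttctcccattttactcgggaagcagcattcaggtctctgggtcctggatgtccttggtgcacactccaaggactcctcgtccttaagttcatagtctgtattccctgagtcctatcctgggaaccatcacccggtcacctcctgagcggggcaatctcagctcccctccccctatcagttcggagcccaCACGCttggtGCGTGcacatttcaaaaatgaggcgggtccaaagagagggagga
Eno1: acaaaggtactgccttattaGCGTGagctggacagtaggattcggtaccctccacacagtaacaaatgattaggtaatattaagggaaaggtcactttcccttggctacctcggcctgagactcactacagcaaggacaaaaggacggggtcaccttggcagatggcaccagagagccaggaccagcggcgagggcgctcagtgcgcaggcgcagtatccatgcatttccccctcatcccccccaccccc
Ldha: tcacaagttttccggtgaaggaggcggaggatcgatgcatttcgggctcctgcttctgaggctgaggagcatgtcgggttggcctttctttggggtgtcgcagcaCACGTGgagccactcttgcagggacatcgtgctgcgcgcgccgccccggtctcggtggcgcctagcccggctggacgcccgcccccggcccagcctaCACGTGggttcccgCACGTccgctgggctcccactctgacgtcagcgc
Pfkp: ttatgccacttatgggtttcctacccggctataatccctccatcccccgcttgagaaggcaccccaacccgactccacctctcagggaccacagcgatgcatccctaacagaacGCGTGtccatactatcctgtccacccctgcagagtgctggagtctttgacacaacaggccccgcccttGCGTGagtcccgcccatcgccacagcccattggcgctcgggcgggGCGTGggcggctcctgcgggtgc
Bnip3: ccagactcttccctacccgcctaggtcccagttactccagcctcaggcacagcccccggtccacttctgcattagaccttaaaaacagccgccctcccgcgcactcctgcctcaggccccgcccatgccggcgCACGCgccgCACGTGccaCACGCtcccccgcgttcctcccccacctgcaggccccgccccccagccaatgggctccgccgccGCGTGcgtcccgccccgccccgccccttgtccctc
Capital stretches number 2 for Gapdh, 1 for Eno1, 3 for Ldha, 3 for Pfkp and 4 for Bnip3. The palindrome CACGTG, which contains ACGTG on each strand, stands at 2 places in the Ldha window and at 1 in the Bnip3 window. In the gene annotation the Gapdh and Ldha windows lie inside the gene's outer bounds but in no exon, and the Bnip3 and Pfkp windows reach 13 and 6 bases into an exon. All 32 members had at least 1 promoter in RefSeq, 46 windows in all. The HIF-1 core letters stood in 36 of these 46 windows (78.3%) and in at least 1 window of 28 of the 32 genes. The same letters stood in 38.6% of all 32851 windows of this length in the table and in 55.0% of the 11479 windows of genes tested here. CACGTG stood in 5 of the 46 windows (10.9%), against 6.02% of all windows and 8.11% of the windows of genes tested. A match of letters is a description and not a binding site.

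No member passed the test for a difference between Hpgd KO and WT Treg cells. The comparison was fitted with limma on log2(normalized count + 1) over genes averaging at least 10 normalized counts, a filter that kept 11787 of 15815 genes and all 32 members, and p-values were adjusted over the 11787 genes. None of the 32 members passed an adjusted p of 0.05, and none of the 11787 genes did (background 0%). The unadjusted p was under 0.05 for 0 of 32 members, beside 1.79% of genes tested (211), and the libraries of the groups did not overlap for 0 of 32 members, beside 3.65% of genes tested (430, with 1.71% all above and 1.93% all below WT). The estimate was higher in Hpgd KO for 15 members and lower for 17. Over all genes tested 51.8% were higher and 48.2% lower. The median log2 fold change of Hpgd KO over WT was -0.01 over the members and 0.01 over all genes tested. It ran from -0.33 for Egln1 to 0.42 for Pdk3, and each of the 32 adjusted p-values was 1.00. These data do not show equal levels, since the median 95% interval of a member reached 0.58 log2 units to either side. In bulk samples, fewer cells of a type and less RNA per cell cannot be told apart.

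The balance of signs depended on single libraries, in either direction. Without KO 1, and likewise without WT 3, 10 of the 32 members had a higher estimate in Hpgd KO, with a median of -0.14 each time. Without WT 2, 23 members had a higher and 9 a lower estimate in Hpgd KO, beside 50.7% higher over all genes, and the median moved to 0.09. Of the 18 glycolytic genes 16 were then higher in Hpgd KO (median 0.19), against 10 of 18 with all libraries (median 0.01). The libraries no longer overlapped for 2 members, Pdk3 and Tpi1, beside 7.82% of genes tested. Pdk3 alone had an unadjusted p under 0.05 (0.0322, beside 2.46% of genes), and its limma adjusted p was 1.00. No member passed the adjusted threshold without WT 2 either.

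**Figure D1:**
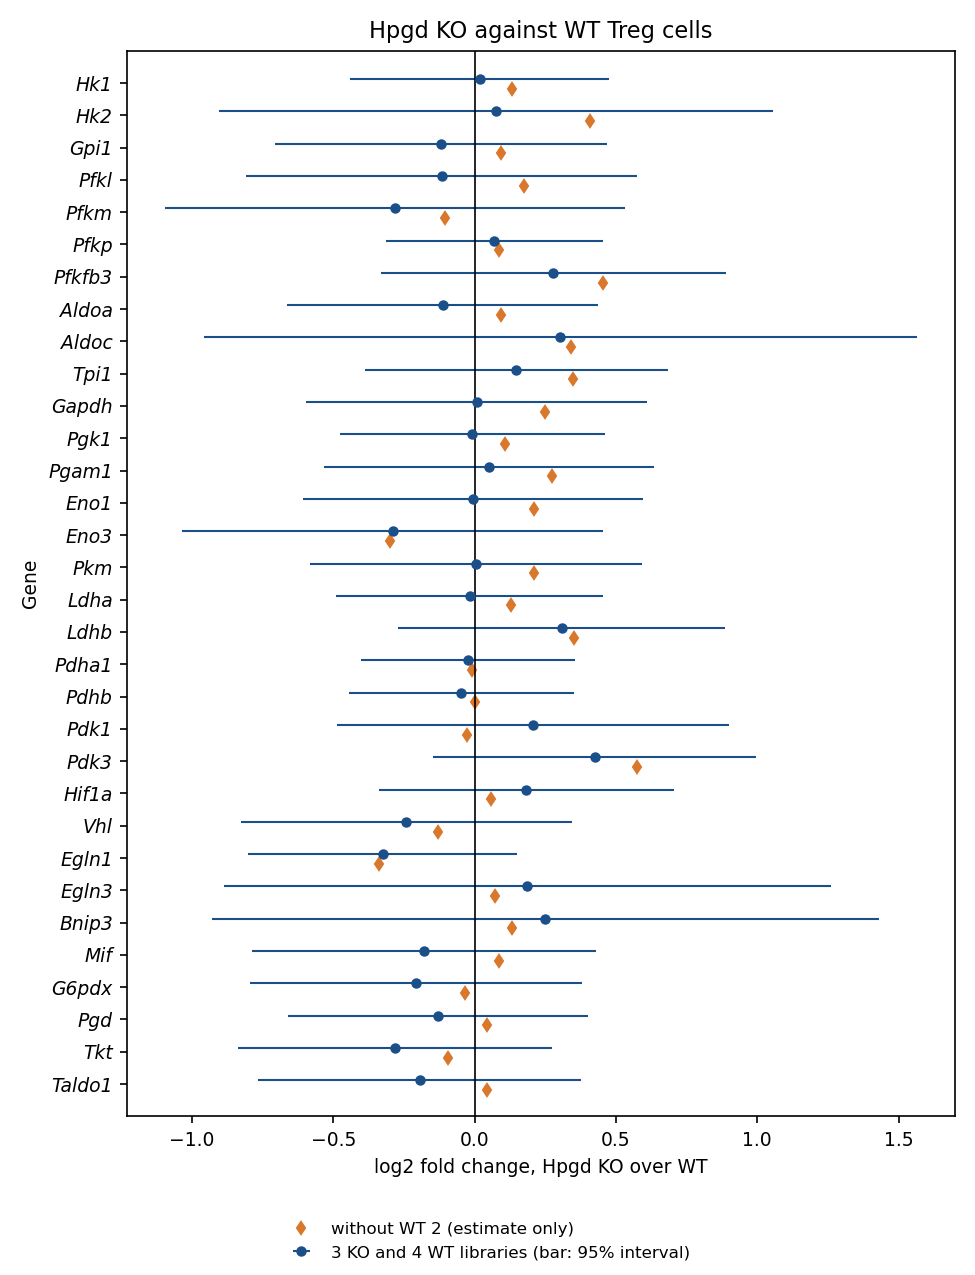
Log2 fold change of Hpgd KO over WT for each of the 32 genes on the log2(normalized count + 1) scale; circles are estimates from 3 Hpgd KO and 4 WT libraries with 95% intervals, and diamonds are estimates without WT 2. Every interval contains 0, and leaving out WT 2 places 23 of 32 estimates above 0.

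Glycolytic transcripts were abundant and, for a given measure of gene length, their order over the steps of the pathway was much the same in every library. To compare genes, normalized counts were divided by the mean length of the gene's protein-coding transcripts, and isozymes of a step were summed. Enolase, which forms phosphoenolpyruvate, had 5705 ± 1279 normalized counts per kilobase in Hpgd KO libraries (SD, n = 3) and 5925 ± 2106 in WT libraries (SD, n = 4). Lactate dehydrogenase followed with 5559 ± 730.2 in Hpgd KO and 5628 ± 1236 in WT libraries. Enolase ranked above lactate dehydrogenase in 5 libraries and below it in 2, so the order of these neighbours was not fixed.

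Pyruvate kinase, the last ATP-yielding step, took rank 3 of 11 in all 7 libraries, with 4585 ± 1249 per kilobase in Hpgd KO and 4649 ± 1586 in WT. Glyceraldehyde phosphate dehydrogenase, which makes the NADH of the pathway, took rank 4 with 3917 ± 980.2 in Hpgd KO and 4033 ± 1606 in WT. Aldolase, which cleaves fructose bisphosphate, took rank 5 and glucose phosphate isomerase rank 6 in every library. Their means over the 7 libraries were 3154 and 2267 per kilobase.

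The lower part of the order held phosphoglycerate kinase (mean 1102 per kilobase, range 765 to 1389) and phosphofructokinase (mean 991, range 822 to 1214), which exchanged ranks 7 and 8 between libraries. Phosphoglycerate mutase (mean 568), triose phosphate isomerase (mean 538) and hexokinase (mean 468), the enzyme that traps glucose in the cell, shared ranks 9 to 11. Hexokinase was the lowest step in 5 libraries, and its range of 397 to 597 overlapped those of its neighbours. With the longest coding transcript as the length, hexokinase was lowest in all 7 libraries, and likewise with the union of exons. With the union of exons lactate dehydrogenase was highest in all 7. The middle ranks also depended on the length used. Pyruvate kinase took ranks 4 to 5 with the longest transcript and 4 to 6 with the union of exons, and glyceraldehyde phosphate dehydrogenase ranks 2 to 3 and 4 to 6. Aldolase took ranks 4 to 5 with the longest transcript and 2 to 3 with the union of exons.

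**Figure D2:**
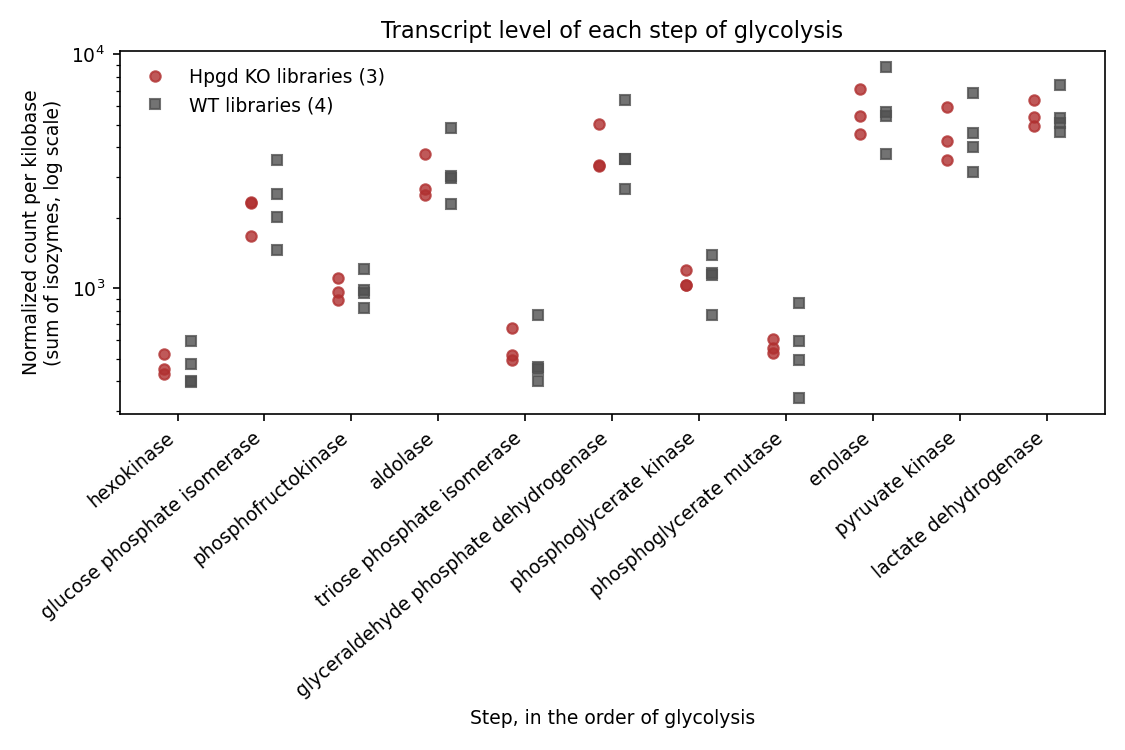
Normalized count per kilobase (log scale), summed over the isozymes of each step of glycolysis, in 3 Hpgd KO libraries (circles, left) and 4 WT libraries (squares, right). Enolase and lactate dehydrogenase lie highest, with means of 5831 and 5598 over the 7 libraries, hexokinase has the lowest mean (468), and the 2 groups overlap at every step.

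Among the single glycolytic genes, Gapdh (chr6:125161715-125166467, mm10, minus strand, protein-coding) reached the highest levels in WT 2 and KO 1. It had 4882, 3252 and 3229 normalized counts in KO 1 to KO 3 and 3461, 6143, 2559 and 3437 in WT 1 to WT 4. WT 2 was highest and WT 3 lowest, so the WT libraries enclosed the Hpgd KO libraries. Its log2 fold change was 0.01 (SE 0.28, 95% interval -0.60 to 0.61), and 0.25 without WT 2.

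Pkm (chr9:59656368-59679375) encodes pyruvate kinase of most tissues other than liver and red cells. Its normalized counts were 6120, 4387 and 3615 in KO 1 to KO 3 and 4107, 7022, 3209 and 4751 in WT 1 to WT 4. Again WT 2 and KO 1 were highest and WT 3 lowest. Hpgd KO over WT, the log2 fold change was 0.01 (SE 0.27), and 0.21 without WT 2.

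Eno1 (chr4:150236721-150248879), the enolase of most tissues, had 7789, 5965 and 5033 normalized counts in KO 1 to KO 3 and 6231, 9699, 4053 and 5978 in WT 1 to WT 4. Aldoa (chr7:126795234-126800751), the aldolase of muscle and most other tissues, had 3898, 2761 and 2617 in KO 1 to KO 3 and 3145, 5048, 2394 and 3087 in WT 1 to WT 4. Ldha (chr7:46841475-46855627), the lactate dehydrogenase subunit that favours the formation of lactate, had 5906, 4962 and 4470 in KO 1 to KO 3 and 4698, 6991, 4208 and 5059 in WT 1 to WT 4. All 3 genes repeated the order of Gapdh at its ends, with WT 2 highest, KO 1 next and WT 3 lowest. Their log2 fold changes were -0.01 for Eno1, -0.11 for Aldoa and -0.02 for Ldha with all libraries, and 0.21, 0.09 and 0.13 without WT 2.

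Hk1 (chr10:62268855-62379908), the constitutive hexokinase, had 619, 543 and 509 normalized counts in KO 1 to KO 3 and 480, 693, 476 and 570 in WT 1 to WT 4. Hk2, the inducible hexokinase, was lower, with 75.1, 46.0 and 64.4 in KO 1 to KO 3 and 48.4, 116, 40.7 and 47.8 in WT 1 to WT 4. WT 2 held the top value of each, and for Hk2 it lay far above the other WT libraries. The estimated log2 fold change was 0.02 for Hk1 (SE 0.21) and 0.07 for Hk2 (SE 0.45), and without WT 2 it was 0.13 for Hk1 (SE 0.19) and 0.41 for Hk2 (SE 0.42).

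Pfkp (chr13:6579768-6648777), the platelet-type phosphofructokinase, had 1554, 1420 and 1377 normalized counts in KO 1 to KO 3 and 1544, 1426, 1237 and 1333 in WT 1 to WT 4. Its libraries lay close together, and WT 2 was not the highest. The log2 fold change was 0.07 (SE 0.18, 95% interval -0.31 to 0.45). Pfkm (chr15:98092589-98132451), the muscle type, had a low level of 56.9, 82.4 and 55.2 in KO 1 to KO 3 and 63.8, 113, 67.9 and 74.5 in WT 1 to WT 4. Its log2 fold change of -0.28 (SE 0.38) was among the 3 lowest of the members, and the groups overlapped. Without WT 2 it was -0.10. Pfkl, the liver type, ran from 382 to 639 in Hpgd KO and from 364 to 955 in WT libraries, with WT 2 at the top. Pfkfb3, which makes the activator of phosphofructokinase, ran from 224 to 280 in Hpgd KO and from 153 to 295 in WT libraries (log2 fold change 0.28, SE 0.28, and 0.45 without WT 2).

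The glycolytic genes with the largest estimates in either direction were minor isozymes. Ldhb (chr6:142490249-142507957), the subunit that favours the oxidation of lactate, had 294, 271 and 325 normalized counts in KO 1 to KO 3 and 260, 261, 303 and 158 in WT 1 to WT 4. WT 4 alone was low, and WT 3 exceeded 2 of the Hpgd KO libraries. Its log2 fold change was 0.31 (SE 0.27, unadjusted p = 0.271, limma adjusted p = 1.00).

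Aldoc (chr11:78322968-78327781), the aldolase of brain, had 78.2, 36.4 and 16.5 normalized counts in KO 1 to KO 3 and 29.7, 31.7, 20.4 and 38.0 in WT 1 to WT 4. KO 1 was the highest and KO 3 the lowest of all 7 libraries, so the WT libraries lay within the Hpgd KO range. Hpgd KO over WT, the log2 fold change was 0.30 (SE 0.58), and -0.24 without KO 1. Eno3 (chr11:70657202-70662513), the muscle enolase, had 91.1, 75.9 and 53.3 in KO 1 to KO 3 and 82.5, 86.0, 98.4 and 85.7 in WT 1 to WT 4. Its estimate of -0.29 (SE 0.35) was the second lowest of the 32 members, and KO 1 lay among the WT libraries.

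The other 4 glycolytic genes overlapped between the groups as well. Gpi1, which converts glucose-6-phosphate to fructose-6-phosphate, ran from 2208 to 3085 in Hpgd KO and from 1925 to 4636 in WT libraries. Tpi1, which interconverts the triose phosphates, ran from 593 to 813 in Hpgd KO and from 484 to 924 in WT libraries. Only WT 2 lay above any Hpgd KO library for Tpi1, and the log2 fold change of Tpi1 was 0.15 with WT 2 and 0.35 without it (unadjusted p = 0.565 and 0.0879). Pgk1, the first ATP-yielding enzyme of the pathway, ran from 1882 to 2178 in Hpgd KO and from 1397 to 2534 in WT libraries. Pgam1, the phosphoglycerate mutase, ran from 936 to 1076 in Hpgd KO and from 605 to 1531 in WT libraries.

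**Figure D3:**
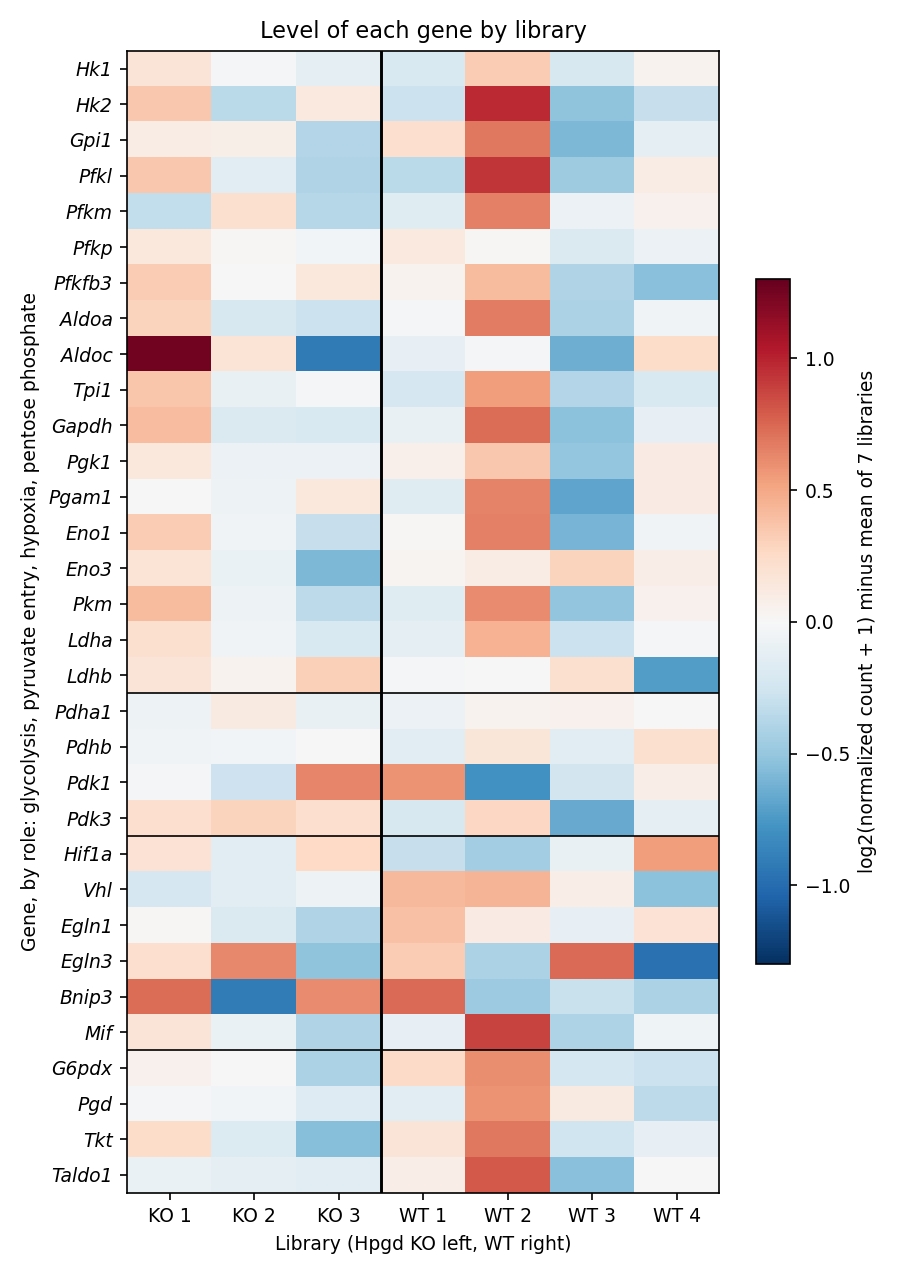
Level of each of the 32 genes in each library as log2(normalized count + 1) minus the mean of the 7 libraries, with Hpgd KO libraries left of the vertical line and WT libraries right of it; horizontal lines part glycolysis, pyruvate entry, hypoxia and pentose phosphate genes. WT 2 is the darkest red column in glycolysis and the pentose phosphate pathway, where it is highest for 14 of 18 and 4 of 4 genes, and WT 3 is mostly blue.

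For most glycolytic genes the WT libraries held both the highest and the lowest value. The size of the spread was near that of other genes: the median SD over the 7 libraries was 0.36 log2 units for the 18 glycolytic genes, against 0.40 over all genes tested and 0.33 over those averaging at least 100 normalized counts. WT 2 was the highest of the 7 libraries for 20 of 32 members, beside 29.2% of all genes tested, and WT 3 was the lowest for 17 of 32, beside 19.0% of all genes. Among the 18 glycolytic genes WT 2 was highest for 14 and WT 3 lowest for 13. WT 2 exceeded the mean of the other 6 libraries by a median of 0.68 log2 units over the glycolytic genes and 0.75 over the pentose phosphate genes. This median was 0.06 over all genes tested and 0.11 over those averaging at least 100 normalized counts. For the hypoxia genes this median was -0.18.

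Summed over the 18 glycolytic genes, normalized counts were 39342, 30929 and 27785 in KO 1 to KO 3 and 31605, 48505, 23613 and 31704 in WT 1 to WT 4. The means were 32685 ± 5975 in Hpgd KO (SD, n = 3) and 33857 ± 10476 in WT (SD, n = 4). Without WT 2 the WT mean was 28974 ± 4643 (SD, n = 3), so the Hpgd KO mean lay below the WT mean with WT 2 and above it without, by less than 1 SD in each case. The share of reads taken by these genes was 0.365% to 0.546% in Hpgd KO and 0.341% to 0.609% in WT libraries.

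Markers of myeloid cells moved with this sum in part. All 5 listed markers (Lyz2, Csf1r, Itgam, Cd14 and Adgre1) were in the table, with Cd14 at 0 in KO 2, WT 1 and WT 3. Their summed level was 1533, 583 and 953 in KO 1 to KO 3 and 1310, 1334, 146 and 1225 in WT 1 to WT 4, lowest in WT 3 and highest in KO 1 and WT 2. The glycolytic sum was also lowest in WT 3 and highest in WT 2 and KO 1. Most of the myeloid sum was Lyz2, with 1274, 482 and 660.1 in KO 1 to KO 3 and 1090.1, 1043, 47.5 and 962 in WT 1 to WT 4. Csf1r was highest in WT 2 (250), KO 1 (182) and WT 4 (181), with 71.3 in WT 3, and was lowest in KO 2 (33.1). Cd14 was also highest in WT 2, at 8.15 normalized counts. Itgam and Adgre1 did not follow Lyz2: Itgam was lowest in WT 2 (7.24), and Adgre1 was highest in KO 3 (129) with 26.3 in WT 2. Among the Treg and T cell markers, Foxp3, Ikzf2 and Ctla4 were lowest in WT 2, where the glycolytic sum was highest. Cd4 (5769), Cd3e (3021) and Tnfrsf18 (8284) were highest in WT 2. Il2ra, with 4602 in WT 2, lay within its range of 3509 to 5620 over the 7 libraries. Erythroid markers (4 of 6 in the table) summed to 62.2 to 199 in Hpgd KO and 491 to 2033 in WT libraries, highest in WT 2. Every Hpgd KO library thus lay below every WT library for this sum. Of these markers Alas2 overlapped, with 3.62 in WT 2 and 9.69 in KO 2. B cell markers (3 of 4 in the table) summed to 327 to 433 in Hpgd KO and 320 to 751 in WT libraries, also highest in WT 2, and most of this was Cd79b. Dendritic cell markers went the other way, with 180 to 254 in Hpgd KO and 129 to 248 in WT libraries, lowest in WT 2. NK cell markers were highest in WT 4 (46.4). CD8 T cell markers (136) and stromal, endothelial and epithelial markers (888) were highest in WT 2. The part of these cell types, of the Treg markers and of the ribosomal protein share in WT 2, in the spread of the glycolytic genes was not tested. Nor was the part of these cell types in the comparison of Hpgd KO with WT.

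Among the members, each isozyme family was led by the same gene in nearly all libraries. Per kilobase, Hk1 made up 94.9% to 96.5% of hexokinase transcripts in the 3 Hpgd KO libraries and 93.4% to 96.6% in the 4 WT libraries, over Hk2. Aldoa held 99.1% to 99.7% of aldolase, Eno1 97.2% to 98.9% of enolase and Ldha 92.2% to 96.5% of lactate dehydrogenase over the 7 libraries. Brain and muscle forms (Aldoc and Eno3) and Ldhb were therefore small parts of their families in every library. These shares also depend on the length used. With the longest coding transcript Hk1 held 88.5% to 93.9% over the 7 libraries. With the union of exons Hk1 held 80.7% to 89.3% and Ldha 86.7% to 93.8%. Egln1 held 74.1% to 92.1% of the pair Egln1 and Egln3. Egln2, another prolyl hydroxylase, is not a member and was left out of this share. It had 147 to 369 normalized counts in Hpgd KO and 238 to 368 in WT libraries. Its coding transcripts average 1931.5 bases, against 3594 for Egln1. The share therefore does not show that Egln1 leads all prolyl hydroxylases per kilobase.

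Phosphofructokinase was the glycolytic family with a mixed make-up. Pfkp made up 70.5%, 73.8% and 77.0% in KO 1 to KO 3 and 78.2%, 58.7%, 75.2% and 69.9% in WT 1 to WT 4. Pfkl took most of the rest, with 19.8% to 26.9% in Hpgd KO and 18.5% to 36.5% in WT libraries, and Pfkm took 2.66% to 4.80%. WT 2 had the lowest share of Pfkp and the highest of Pfkl. These shares depend on the length given to each gene: with the union of exons Pfkp held 50.7% to 58.2% in Hpgd KO and 37.5% to 59.7% in WT libraries, and Pfkl then exceeded Pfkp in WT 2. The PDH kinases were also mixed, with Pdk3 at 51.4% to 67.5% in Hpgd KO and 44.8% to 74.6% in WT libraries over Pdk1.

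Differences between isozymes and steps were tested as log2 ratios within each library, in which gene length cancels. Exact two-sided permutation tests over the 35 splits of 7 libraries cannot give a p below 0.0286, and the p-values were adjusted over the 10 ratios. A single ratio at that smallest p would have an adjusted p of 0.286, and at least 6 ratios would have to be there for any to pass 0.05. None of the 10 ratios passed the test, with the smallest unadjusted exact p at 0.257 and the smallest adjusted p at 0.964. The ratio of Pfkm to Pfkp had that smallest p, with -4.48 ± 0.35 in Hpgd KO (SD, n = 3) and -4.13 ± 0.38 in WT (SD, n = 4). Ldhb to Ldha was -4.10 ± 0.29 in Hpgd KO and -4.42 ± 0.54 in WT (difference 0.33, exact p = 0.429, n = 3 and 4). Aldoc to Aldoa differed by 0.42 (exact p = 0.343), Egln3 to Egln1 by 0.51 (exact p = 0.400) and Eno3 to Eno1 by -0.28 (exact p = 0.514). Hk2 to Hk1 differed by 0.06 (exact p = 0.886), Pfkl to Pfkp by -0.19 (exact p = 0.714) and Pdk3 to Pdk1 by 0.22 (exact p = 0.771). Tkt to Taldo1 differed by -0.09 (exact p = 0.743). Ldha to Pdha1, which sets lactate formation beside pyruvate oxidation, differed by 0.01 (exact p = 1.00). Without WT 2, when an exact p cannot be below 0.10, the difference was 0.27 for Hk2 to Hk1, 0.60 for Pdk3 to Pdk1, 0.14 for Ldha to Pdha1, 0.09 for Pfkl to Pfkp and -0.51 for Eno3 to Eno1 (exact p = 0.10 for Eno3 to Eno1).

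**Figure D4:**
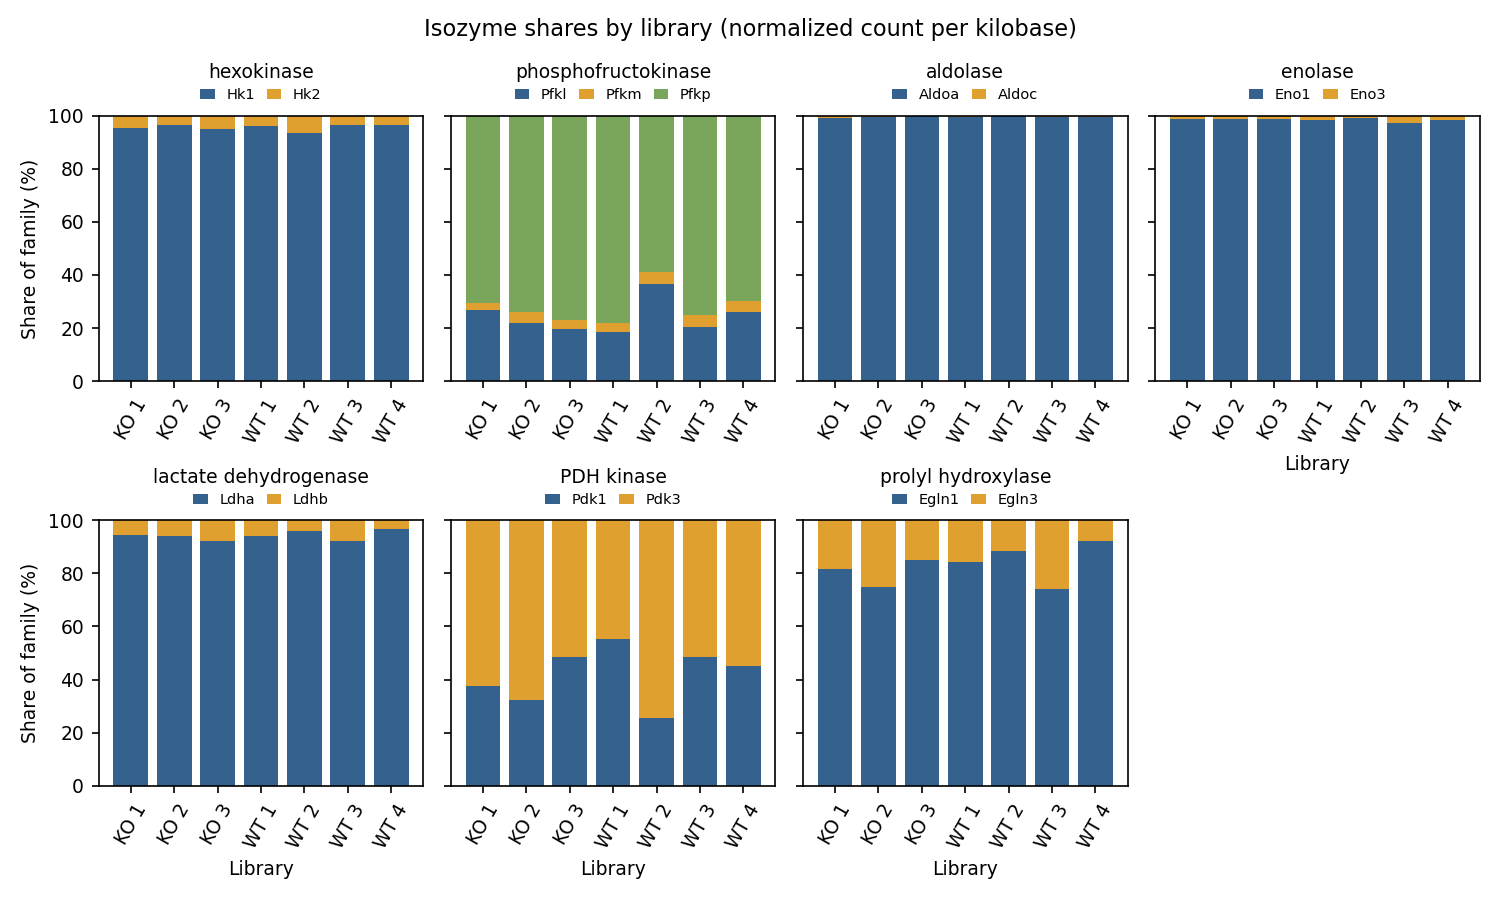
Share of each isozyme among the members of its family (%), from normalized counts per kilobase, in each library. Hpgd KO libraries are left of WT libraries, and bars stack to 100%. Egln2 is not among the members and is left out. By the mean length of coding transcripts, Hk1, Aldoa, Eno1 and Ldha take at least 92.2% of their families in every library. Phosphofructokinase and PDH kinase are mixed, and WT 2 has the lowest share of Pfkp (58.7%).

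At the entry of pyruvate into mitochondria, the 2 subunits of pyruvate dehydrogenase hardly varied. Pdha1, the alpha subunit, ran from 1010 to 1167 in Hpgd KO and from 1023 to 1122 in WT libraries. Its SD over the 7 libraries was 0.079 log2 units, and only 0.110% of genes tested had a lower one. Pdhb, the beta subunit, ran from 1229 to 1278 in Hpgd KO and from 1146 to 1472 in WT libraries. Their log2 fold changes were -0.02 (SE 0.18) and -0.05 (SE 0.18).

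The kinases that switch off this complex varied more. Pdk3 (chrX:93764607-93832201) had the highest estimate of the 32 members. It had 276, 291 and 276 normalized counts in KO 1 to KO 3 and 205, 285, 150 and 217 in WT 1 to WT 4. WT 2 lay between Hpgd KO libraries, and the other WT libraries lay below all of them. The estimated log2 fold change was 0.42 (SE 0.26, 95% interval -0.15 to 1.00, unadjusted p = 0.132, limma adjusted p = 1.00), and 0.57 (SE 0.24) without WT 2. Pdk1, a HIF-1 target, ran from 343 to 640 in Hpgd KO and from 238 to 617 in WT libraries, lowest in WT 2 and highest in KO 3. Its log2 fold change was 0.21 (SE 0.32), and -0.03 without WT 2.

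In the hypoxia response, the regulator Hif1a (chr12:73901375-73947530) had 2473, 1978 and 2606 normalized counts in KO 1 to KO 3 and 1766, 1584, 2026 and 3166 in WT 1 to WT 4. WT 4 was highest and WT 2 lowest, the reverse of the place WT 2 took for the glycolytic genes. The log2 fold change was 0.18 (SE 0.24, 95% interval -0.34 to 0.70), and 0.06 without WT 2.

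Egln1 (chr8:124908587-124949324) encodes the main oxygen-sensing prolyl hydroxylase and had the lowest estimate of the 32 members. It had 395, 344 and 298 normalized counts in KO 1 to KO 3 and 509, 420, 362 and 444 in WT 1 to WT 4. KO 1 lay above WT 3, and every other Hpgd KO library lay below every WT library. Its log2 fold change was -0.33 (SE 0.22, 95% interval -0.80 to 0.15, unadjusted p = 0.163, limma adjusted p = 1.00), and -0.34 without WT 2.

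Vhl, the recognition subunit of the ligase that destroys HIF-1 alpha, ran from 249 to 276 in Hpgd KO and from 200 to 392 in WT libraries (log2 fold change -0.24, SE 0.27, and -0.13 without WT 2). Egln3, a prolyl hydroxylase that HIF-1 induces, had 65.3, 86.4 and 38.6 in KO 1 to KO 3 and 70.4, 41.6, 93.9 and 28.1 in WT 1 to WT 4. Bnip3, a mitophagy receptor and HIF-1 target, had 67.5, 21.0 and 62.5 in KO 1 to KO 3 and 68.2, 29.0, 32.8 and 30.2 in WT 1 to WT 4. High and low values of Egln3 and Bnip3 thus occurred in each group, and Bnip3 was high in KO 1, KO 3 and WT 1 only. Mif, a cytokine that HIF-1 also induces, ran from 653 to 963 in Hpgd KO and from 648 to 1571 in WT libraries, highest in WT 2.

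All 4 pentose phosphate genes had lower estimates in Hpgd KO with all libraries, and none passed the test. G6pdx (chrX:74409483-74429194) encodes glucose-6-phosphate dehydrogenase, the rate-limiting enzyme of the pathway. It had 321, 307 and 232 normalized counts in KO 1 to KO 3 and 367, 470, 262 and 254 in WT 1 to WT 4. The Hpgd KO values lay between those of the WT libraries except for KO 3, the lowest of all. Hpgd KO over WT, the log2 fold change was -0.21 (SE 0.27), and -0.03 without WT 2.

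Pgd, the dehydrogenase that yields the second NADPH, ran from 364 to 402 in Hpgd KO and from 323 to 610 in WT libraries. Tkt, the transketolase of the non-oxidative branch, ran from 927 to 1606 in Hpgd KO and from 1137 to 2180 in WT libraries (log2 fold change -0.28, SE 0.26, and -0.09 without WT 2). Taldo1, the transaldolase, ran from 1374 to 1418 in Hpgd KO and from 1029 to 2616 in WT libraries. WT 2 was the highest library for each. The median log2 fold change of the 4 genes was -0.20 with all libraries and 0.00 without WT 2, when 2 were higher and 2 lower in Hpgd KO. Summed normalized counts were 3747, 3294 and 2896 in KO 1 to KO 3 and 3860, 5876, 2870 and 3338 in WT 1 to WT 4.

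Other genes of these pathways came from lists of 76 names. Of these, 68 were in the table and 60 were tested, and 0 passed the adjusted threshold (background 0%). The unadjusted p was under 0.05 for 2 of 60, beside 1.79% of all genes, and the groups did not overlap for 4 of 60, beside 3.65%. Estimates were higher in Hpgd KO for 33 and lower for 27. By list, 7 of 10 further glycolysis genes, 6 of 9 pyruvate entry genes, 8 of 10 pentose phosphate genes, 8 of 22 hypoxia genes and 4 of 9 regulators (such as Myc and Mtor) had a higher estimate.

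Adpgk, an ADP-dependent glucokinase, had 471, 532 and 533 normalized counts in KO 1 to KO 3 and 394, 392, 278 and 379 in WT 1 to WT 4. Its groups did not overlap, and its log2 fold change was 0.52 (SE 0.22, unadjusted p = 0.0333, limma adjusted p = 1.00). Pdp1, a phosphatase that reactivates pyruvate dehydrogenase, averaged 148 ± 49.2 normalized counts in Hpgd KO (SD, n = 3) and 74.1 ± 19.4 in WT (SD, n = 4). KO 2 lay just below WT 3, and the log2 fold change was 0.97 (SE 0.37, unadjusted p = 0.0211, limma adjusted p = 1.00). Neither gene passed the adjusted threshold.

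Pgls, the lactonase between G6pdx and Pgd, did not overlap either, with 203, 202 and 169 in KO 1 to KO 3 and 243, 313, 207 and 208 in WT 1 to WT 4 (log2 fold change -0.33, and -0.20 without WT 2). Prps1l3, a homologue of ribose phosphate pyrophosphokinase whose reads may be shared with Prps1, ran from 318 to 416 in Hpgd KO and from 305 to 317.8 in WT libraries (log2 fold change 0.28). Ddit4, a stress-induced inhibitor of mTORC1, ran from 198 to 270.3 in Hpgd KO and from 271.3 to 509 in WT libraries (log2 fold change -0.47, and -0.27 without WT 2). The unadjusted p of these 3 genes was between 0.111 and 0.226, and each adjusted p was 1.00.

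The remaining genes with the smallest p in their lists overlapped between the groups. Hilpda, a HIF-1 target of lipid droplets, had 157, 167 and 217 normalized counts in KO 1 to KO 3 and 101, 162, 89.3 and 128 in WT 1 to WT 4, so that only WT 2 lay above any Hpgd KO library. The log2 fold change of Hilpda was 0.61 (SE 0.31, unadjusted p = 0.0707), and 0.76 (SE 0.29, unadjusted p = 0.0212, limma adjusted p = 1.00) without WT 2. Tktl1, a transketolase-like gene, was estimated at 1.29 (SE 0.96) with values of 2.81 to 143 over the 7 libraries. The estimates were 0.47 for Tigar, a fructose bisphosphatase (0.74 without WT 2), and 0.28 for Pdhx, a structural subunit of the pyruvate dehydrogenase complex. They were -0.41 for Tsc2, an inhibitor of mTORC1 signalling, and -0.36 for Rptor, a subunit of mTORC1. Of the glucose transporters, Slc2a1 ran from 125 to 287 in Hpgd KO and from 187 to 511 in WT libraries, and Slc2a3 from 815 to 1366 in Hpgd KO and from 906 to 1673 in WT libraries. Car9, a carbonic anhydrase induced by HIF-1, lay below the filter with 6 reads in all Hpgd KO libraries and 53 in all WT libraries.

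Much of the spread of the glycolytic genes was shared. Over the 7 libraries, 14 of the 31 other members had a Pearson r of at least 0.8 with Gapdh (45.2%), beside 8.39% of all genes tested, on the log2(normalized count + 1) scale. This comparison was chosen after the levels had been seen. Exact permutation p-values over 5040 orders were adjusted over the 11786 other genes, and none passed 0.05 (smallest adjusted p 0.0585). Eno1 and Aldoa followed Gapdh in order exactly (Spearman rho 1.00 for each, exact p = 0.000397), with r = 0.97 for Eno1 and 0.98 for Aldoa (exact p = 0.000198, the smallest 5040 orders can give). Ldha had r = 0.97 and rho = 0.89 (exact p = 0.00119 and 0.0123), and Pkm r = 0.96 and rho = 0.89 (exact p = 0.00119 and 0.0123).

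The 2 libraries farthest from the median of Gapdh, WT 2 and KO 1, carried part of this relation. Without them 7 of 31 members kept an r of at least 0.8 (22.6%), beside 8.55% of all genes, and the median r over the members was 0.52, against 0.74 with all libraries. All 7 were among the 14 with all libraries. Eno1 kept r = 0.94, Aldoa 0.89, Pkm 0.83 and Ldha 0.80, while Hk2 fell to 0.48 without these libraries, against 0.92 with all 7. Points share a library and its scaling factor, so these values describe the libraries.

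Over all 7 libraries, the hypoxia genes other than Mif had an r with Gapdh from -0.34 (Egln3) to 0.30 (Egln1). The rho of Egln1 was 0.61 (exact p = 0.167), and Vhl had r = 0.27. Hif1a had r = -0.30 and rho = -0.43 (exact p = 0.515 and 0.354), and Bnip3 r = 0.07 and rho = 0.07 (exact p = 0.896 and 0.906). Pdk1, a HIF-1 target of the pyruvate entry group, had r = -0.47 and rho = -0.29 (exact p = 0.283 and 0.556). The signs for Hif1a and Pdk1 rested on WT 2: without it r was 0.27 for Hif1a, 0.12 for Pdk1 and 0.49 for Bnip3, and without WT 2 and KO 1 it was 0.24 for Hif1a, 0.53 for Pdk1 and 0.24 for Bnip3. Pdha1 had r = -0.11 and Ldhb r = -0.05. Mif was the exception among the hypoxia genes, with r = 0.94 and rho = 0.89 (exact p = 0.000794 and 0.0123), and 0.73 without WT 2 and KO 1. None of these p-values passed adjustment over all genes.

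**Figure D5:**
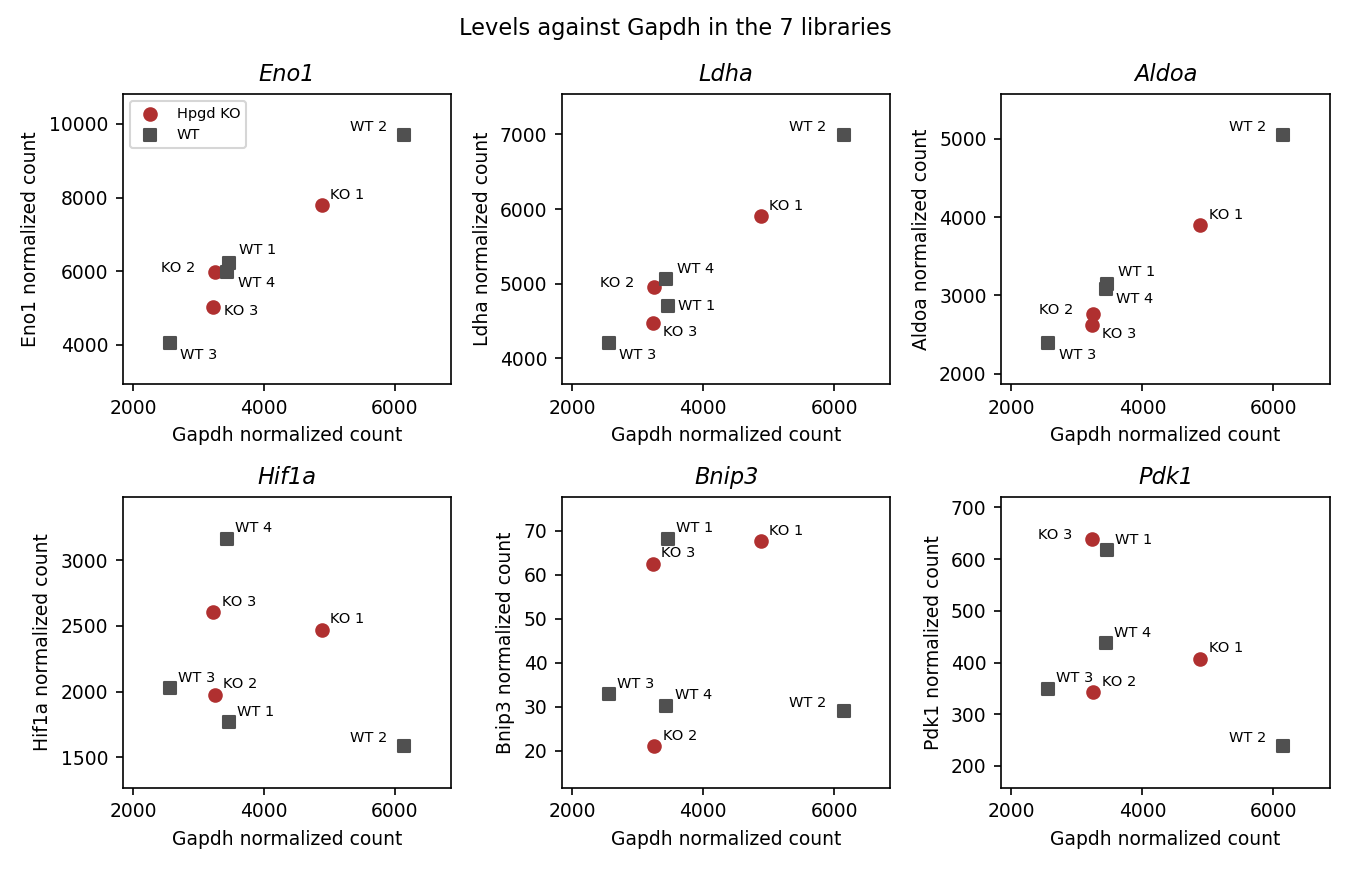
Normalized count of 6 genes (y axes) against that of Gapdh (x axes) in the 7 libraries, with Hpgd KO as circles and WT as squares. Eno1, Ldha and Aldoa climb with Gapdh through WT 2 and KO 1 (r = 0.97 to 0.98 on the log2 scale), whereas r is -0.30 for Hif1a, 0.07 for Bnip3 and -0.47 for Pdk1 with all 7 libraries, and 0.27, 0.49 and 0.12 without WT 2.

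Several members share sequence with other loci, and the library protocol keeps no strand. Exons of Pfkp overlap those of Pitrm1 on the opposite strand by up to 748 bases in the GENCODE M21 annotation. Likewise Pdha1 overlaps Map3k15 by 425, G6pdx Ikbkg by 278 and Gapdh Iffo1 by 68. Loci outside the expression table overlap members too. On the same strand Gm49759 overlaps Pkm by 454 bases, Gm26513 Pfkm by 341 and Gm49321 Hif1a by 148. On the opposite strand Gm45507 overlaps Bnip3 by 342. Reads in such stretches cannot be assigned to either gene with certainty. Gapdh, Pgk1, Ldha, Eno1, Pkm and Tpi1 also have processed pseudogenes in the mouse genome, and the sources used here do not say how reads were divided among copies.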

How the data were processed

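RNA from sorted YFP+ Treg cells of 7 samples (10 ng total RNA each) was made into SmartSeq2 libraries, a full-length protocol without strand or molecular identifiers, and demultiplexed with bcl2fastq2 2.20, per the labels' protocols. Per the submitters' processing notes, which give no roles, the tools were kallisto 0.44, CASAVA 1.8, R 3.3.1, Partek 6.6 and DESeq2 (version unstated), on build mm10. The authors deposited a normalized signal for each gene. Its minimum was 1 in every library, and after subtraction of 1 all values (100%) were whole multiples of a constant of that library, to within 0.01 of a read. This offset of 1 was therefore removed to give normalized counts.

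Groups came from the sample titles. Values of log2(normalized count + 1) from all 7 libraries were fitted without covariates in limma 3.58.1 (R 4.3.3), with a prior that follows mean level. Benjamini-Hochberg adjustment at 0.05 ran over genes averaging at least 10 normalized counts. Fold changes understate the change of low genes. Of models for counts, voom alone was fitted, on reads recovered from the deposited values, and edgeR and DESeq2 were not run. TMM scaling was computed from its published formula. Ratios were tested by exact permutation. GENCODE M21, built on the GRCm38 assembly that mm10 corresponds to, gave coordinates, lengths and exons, and promoters came from RefSeq (GRCm38.p6), in which 36 of 46 windows had their bases after the start in a GENCODE transcript of the gene. The code was tested on simulated data.

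The members and lists were chosen with earlier results of these data known. Values in all libraries are given for members whose groups do not overlap, the 3 with the highest and the 3 with the lowest fold change, the most abundant isozyme per family, and Gapdh, Pkm, Hif1a and G6pdx. Hk2, Egln3 and Bnip3 were added after their values were seen. Of other pathway genes, those not overlapping and the 2 per list with the smallest p are named, and the transporters, Myc and Mtor were added. Reads are not independent molecules. Library pairs were checked for duplicates by a chi-square on reads, with 12.8 per degree of freedom as the lowest value. Alternatives were other pseudocounts, filters, scalings and priors, voom, a replicate block, other gene lengths and leaving out libraries.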

Additional observations from a re-analysis of the deposited data

Results flagged for a closer look

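Of 47 sets of 4 WT values examined, 3 had a library far from the other WT libraries by Dixon's ratio, the gap to the nearest value divided by the whole range; the ratio exceeded the 95% critical value for 4 samples. Chance flags about 1 in 20 such sets. For Hk2 the ratio was 0.898, with WT 2 high at 116 normalized counts and the other WT libraries at 40.7 to 48.4. For Tpi1 it was 0.843, with WT 2 high at 924 and the others at 484 to 553. For Bnip3 it was 0.902, with WT 1 high at 68.2 and the others at 29.0 to 32.8.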

How the results depend on the processing

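No member passed the adjusted threshold under any alternative run. Of 122 comparisons of counts and medians, 118 kept close to the reported value. The number of genes called was 3 of all genes with the replicate number as a block and 4 without WT 2 and KO 3, against 0 otherwise, where 211 genes had an unadjusted p under 0.05 in limma (346 with no filter, 291 without a trended prior, 184 with voom, 112 without KO 3 and 363 without WT 3, the lowest and highest with 1 library left out). Members with a higher estimate numbered 10 to 23 when 1 library was left out (10 without KO 1 or WT 3, 23 without WT 2) and 24 without WT 2 and KO 3, against 15 with all. The median log2 fold change over all genes stayed within 0.02 of 0 under each scaling. Planned edgeR and DESeq2 fits on recovered reads were not run, and voom was the only count model. Of 891 comparisons for single genes and ratios, 812 kept their direction and 79 changed sign, none of them past a threshold. Depth limits the low genes (Aldoc, Hk2, Pfkm, Egln3, Bnip3 and Eno3) most.

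The sample titles do not say whether equal replicate numbers form a pair, and correlations from 3 and 4 libraries cannot decide it. Deviations from the group means correlated at 0.008 for KO 1 and WT 1, -0.036 for KO 2 and WT 2, and 0.094 for KO 3 and WT 3. KO 1 correlated best with WT 2 (0.205), and KO 2 (0.061) and KO 3 (0.094) with WT 3. With the replicate block, signs changed for Hk2 -0.014, Gapdh -0.029, Pgk1 0.025, Pdhb 0.017, Egln3 -0.11, Hk2/Hk1 -0.051 and Ldha/Pdha1 -0.0004. These values equal the estimates without WT 4, because no Hpgd KO library has the replicate number 4 and WT 4 then adds nothing to the difference. With reads scaled by library total, Eno1 changed sign to 0.0013. The cause of the change for Eno1 was not tested.

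Leaving out each library in turn, or WT 2 together with KO 3, gave log2 fold changes that crossed 0 for Hk1 -0.060 to 0.19, Hk2 -0.089 to 0.41, Gpi1 -0.33 to 0.25, Pfkl -0.32 to 0.34, Aldoa -0.29 to 0.20, Aldoc -0.24 to 0.88, Gapdh -0.19 to 0.35, Pgk1 -0.18 to 0.14, Pgam1 -0.17 to 0.27, Eno1 -0.21 to 0.36, Pkm -0.20 to 0.38, Ldha -0.13 to 0.22, Pdha1 -0.089 to 0.028, Pdhb -0.10 to 0.017, Pdk1 -0.28 to 0.43, Hif1a -0.022 to 0.39, Egln3 -0.11 to 0.50, Bnip3 -0.11 to 0.78, Mif -0.34 to 0.23, G6pdx -0.33 to 0.11, Pgd -0.26 to 0.089, Tkt -0.48 to 0.099 and Taldo1 -0.41 to 0.054. Ratio differences that crossed 0 were Hk2/Hk1 -0.051 to 0.27, Pfkl/Pfkp -0.37 to 0.22, Pdk3/Pdk1 -0.016 to 0.87, Tkt/Taldo1 -0.28 to 0.096 and Ldha/Pdha1 -0.13 to 0.19.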
